A study of Mus musculus with 28 samples.

Results

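The 40 genes described here make, desaturate, elongate, esterify or store fatty acids, or mark and control the sebaceous gland, and were followed in mouse epidermis that had lost Kdm6a. They were picked by gene symbol in the first column of the 4 tables of normalized values per library, which held all 40 among 24946 genes. Poly(A) RNA of epidermis was sequenced from 28 samples. Kdm6a, also called Utx, is an X-linked gene for a histone demethylase, and its floxed alleles were recombined by Krt14-Cre, which acts in tissues that express keratin 14. Conditional knockout (cKO) females were Cre+; Utx fl/fl (5 young and 2 aged libraries), heterozygous females were Cre+; Utx +/fl (3 young libraries), and control females were Cre-; Utx fl/fl (4 young and 2 aged libraries). The cKO males were Cre+; Utx fl/Y (3 young and 3 aged libraries). Control males were Cre-; Utx fl/Y (3 aged and 2 young libraries), and the third young male control was Cre-; Utx +/Y. All controls lacked Cre, so the presence of Cre and the loss of Kdm6a cannot be told apart. The ages are known only as young and aged, from the names of the tables. Nothing in the labels says that libraries of a group came from separate animals, so p-values measure the spread between libraries, which may be technical.

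Cells make fatty acids from citrate. ATP citrate lyase (Acly) frees acetyl-CoA, the acetyl-CoA carboxylases Acaca and Acacb turn it into malonyl-CoA, and fatty acid synthase (Fasn) builds palmitate with NADPH that the malic enzyme Me1 helps to supply. Elongases of the Elovl family, stearoyl-CoA desaturases (Scd) and fatty acid desaturases (Fads) then reshape the chain, and acyltransferases join it to glycerol or to fatty alcohols as triglycerides and wax esters. Sebocytes of the sebaceous gland run this pathway at a high rate and burst to release sebum, while keratinocytes use its products for the lipids of the skin barrier.

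The normalized values of a library summed to between 19324729 and 31147915, with 16405 to 17923 genes above 0. Kdm6a itself, on chromosome X, was lower in every cKO library than in every control of the same table, except in aged males. Its normalized values were 976, 873, 1075, 1154 and 1017 in young cKO females against 1265, 1484, 1368 and 1663 in young control females, and 460.2, 473 and 573 in young cKO males against 816, 1187 and 895 in young control males. It had 1373 and 1299 in aged cKO females against 3366 and 2852 in aged control females. The aged cKO female libraries also held almost no Xist, the RNA of the inactive X chromosome (17.1 and 14.4, against 20923 and 18431 in aged controls), which the young cKO females kept (7752, 6239.5, 11873, 10559 and 12511). Ddx3y, a gene of the Y chromosome, was at 1.99 and 2.07 in aged cKO females and 0.970 and 0 in aged control females, and at 1369, 2123 and 1718 in aged males labelled cKO. The aged female comparison therefore sets libraries nearly without Xist against libraries with it, and for every member the genotype and the missing Xist cannot be told apart there. In aged males the libraries labelled cKO had 584, 1322 and 673 and those labelled control 1089.7, 1224 and 1511, so the library labelled cKO 5 was at the level of the controls. A second transcript, Gh, was at 331 to 820.2 in every young or female cKO library and at most 2.58 in their controls, but at 866, 0 and 843 in the aged males labelled cKO and at 0.948, 2443 and 559 in those labelled control. Aged male results therefore refer to the labels only. Keratinocyte markers such as Krt5 and Krt14 were high in all groups (summed value of the 9 markers between 757173 and 1809456). The number of cells of a type and the RNA that each cell makes cannot be told apart in these bulk samples.

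The sequences just before the start sites of 4 genes are shown because these genes carry the results that follow: Acoxl and Aadac passed the test in young females and Acacb in aged females, and Fasn is the central enzyme of the pathway. Each is the 250 bases upstream of the RefSeq start in the GRCm38.p6 assembly, written 5′ to 3′ along the gene. Capitals mark the CCAAT box (CCAAT or its reverse ATTGG), the GC box (GGGCGG or CCGCCC), the TATA box (TATAAA or TTTATA) and the E-box (CACGTG), which were searched on both strands. Acoxl lies at chr2:127854378-127854627 on the plus strand, Aadac at chr3:60031538-60031787 on the plus strand, Acacb at chr5:114165268-114165517 on the plus strand, and Fasn at chr11:120824548-120824797 on the minus strand. The RefSeq starts of Acoxl, Aadac and Acacb lie inside the span that GENCODE gives each gene.
Acoxl: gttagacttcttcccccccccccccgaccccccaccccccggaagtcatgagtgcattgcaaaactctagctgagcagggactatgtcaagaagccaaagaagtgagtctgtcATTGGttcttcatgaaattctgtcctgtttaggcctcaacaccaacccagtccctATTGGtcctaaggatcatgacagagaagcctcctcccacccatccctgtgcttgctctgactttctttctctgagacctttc
Aadac: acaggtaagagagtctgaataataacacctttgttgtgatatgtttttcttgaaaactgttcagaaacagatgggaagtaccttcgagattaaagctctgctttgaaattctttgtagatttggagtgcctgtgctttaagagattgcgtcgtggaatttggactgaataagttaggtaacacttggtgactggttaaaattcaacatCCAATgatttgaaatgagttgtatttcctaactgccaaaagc
Acacb: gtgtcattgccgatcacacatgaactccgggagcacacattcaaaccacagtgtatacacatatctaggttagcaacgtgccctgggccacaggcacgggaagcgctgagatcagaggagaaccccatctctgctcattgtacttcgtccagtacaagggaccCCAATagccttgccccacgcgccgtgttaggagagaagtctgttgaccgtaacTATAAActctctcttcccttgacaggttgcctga
Fasn: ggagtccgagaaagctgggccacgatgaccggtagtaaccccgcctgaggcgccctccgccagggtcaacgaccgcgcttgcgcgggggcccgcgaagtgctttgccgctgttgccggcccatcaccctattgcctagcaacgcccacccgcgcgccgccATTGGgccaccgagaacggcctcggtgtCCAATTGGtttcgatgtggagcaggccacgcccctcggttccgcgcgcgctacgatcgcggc
Acoxl holds 2 CCAAT boxes in the reverse direction, Aadac 1 in the forward direction, and Acacb 1 CCAAT box and a TATA box. In Fasn the CCAAT boxes at 62 to 58 and 59 to 55 bases before the start overlap on opposite strands, and another lies 90 to 86 bases before it. Over all members, 31 of 40 matched 39 start sites in the promoter table, and 51.3% of those 39 held a CCAAT box against 33.8% of all 32851 start sites. A GC box was in 43.6% of the members' start sites against 32.7% of all, a TATA box in 5.13% against 12.4%, and an E-box in 2.56% against 6.02%. The LDL receptor type sterol regulatory element and the direct repeat bound by PPAR factors were not matched before any of these 31 members. They were matched at 0.0731% and 0.0335% of all start sites. The other members, Scd1 among them, had no start site there and were not searched. These matches describe letters in a fixed window and say nothing of which factors bind.

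In young females 1 member fell and 1 rose, in aged females 1 fell and most others had log2 changes below 0, and in males 0 members passed the test. Genes were tested with limma on log2(value + 1) within each table, with p-values adjusted over all tested genes and a threshold of 0.05. In young females 2 of the 37 tested members passed, 1 lower (Acoxl) and 1 higher (Aadac), beside 3.94% of all tested genes (1.54% higher and 2.4% lower in cKO). In aged females 1 of 37 passed (Acacb, lower), beside 0.669% of all genes (0.171% higher and 0.498% lower). An unadjusted p under 0.05 was found for 9 of 37 members in young females, beside 16.6% of all genes, and for 9 of 37 in aged females, beside 14.3%. In young males 0 of 35 passed, beside 0.0146% of all genes, and 2 (Far2 and Cidea) had an unadjusted p under 0.05, beside 2.33%. In aged males 0 of 36 passed, beside 0.014%, and 0 had an unadjusted p under 0.05, beside 0.83%. Mogat1, Mogat2 and Plin5, a pair of monoacylglycerol acyltransferases and a lipid droplet protein, were too low to be tested in any table, Thrsp was too low in both male tables and Scd4 in young males. The median log2 change over the tested members was 0.07 in young females, 0.05 in young males, -0.36 in aged females and 0.19 in aged males, and that of all tested genes lay between -0.01 and 0.00. Log2 changes below 0 were found for 13 of 37 members (35.1%) in young females, beside 51.0% of all tested genes, and for 16 of 35 (45.7%) in young males, beside 50.9%. They were found for 31 of 37 (83.8%) in aged females, beside 49.2%, and for 7 of 36 (19.4%) in aged males, beside 50.1%. Without 1 library the aged female count lay between 27 and 36 and its median between -0.47 and -0.16. Lower in both aged cKO female libraries than in both controls were 23 of 37 members, beside 22% of all tested genes, or 20 of 37 beside 18.6% with libraries scaled to the same sum.

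**Figure D1:**
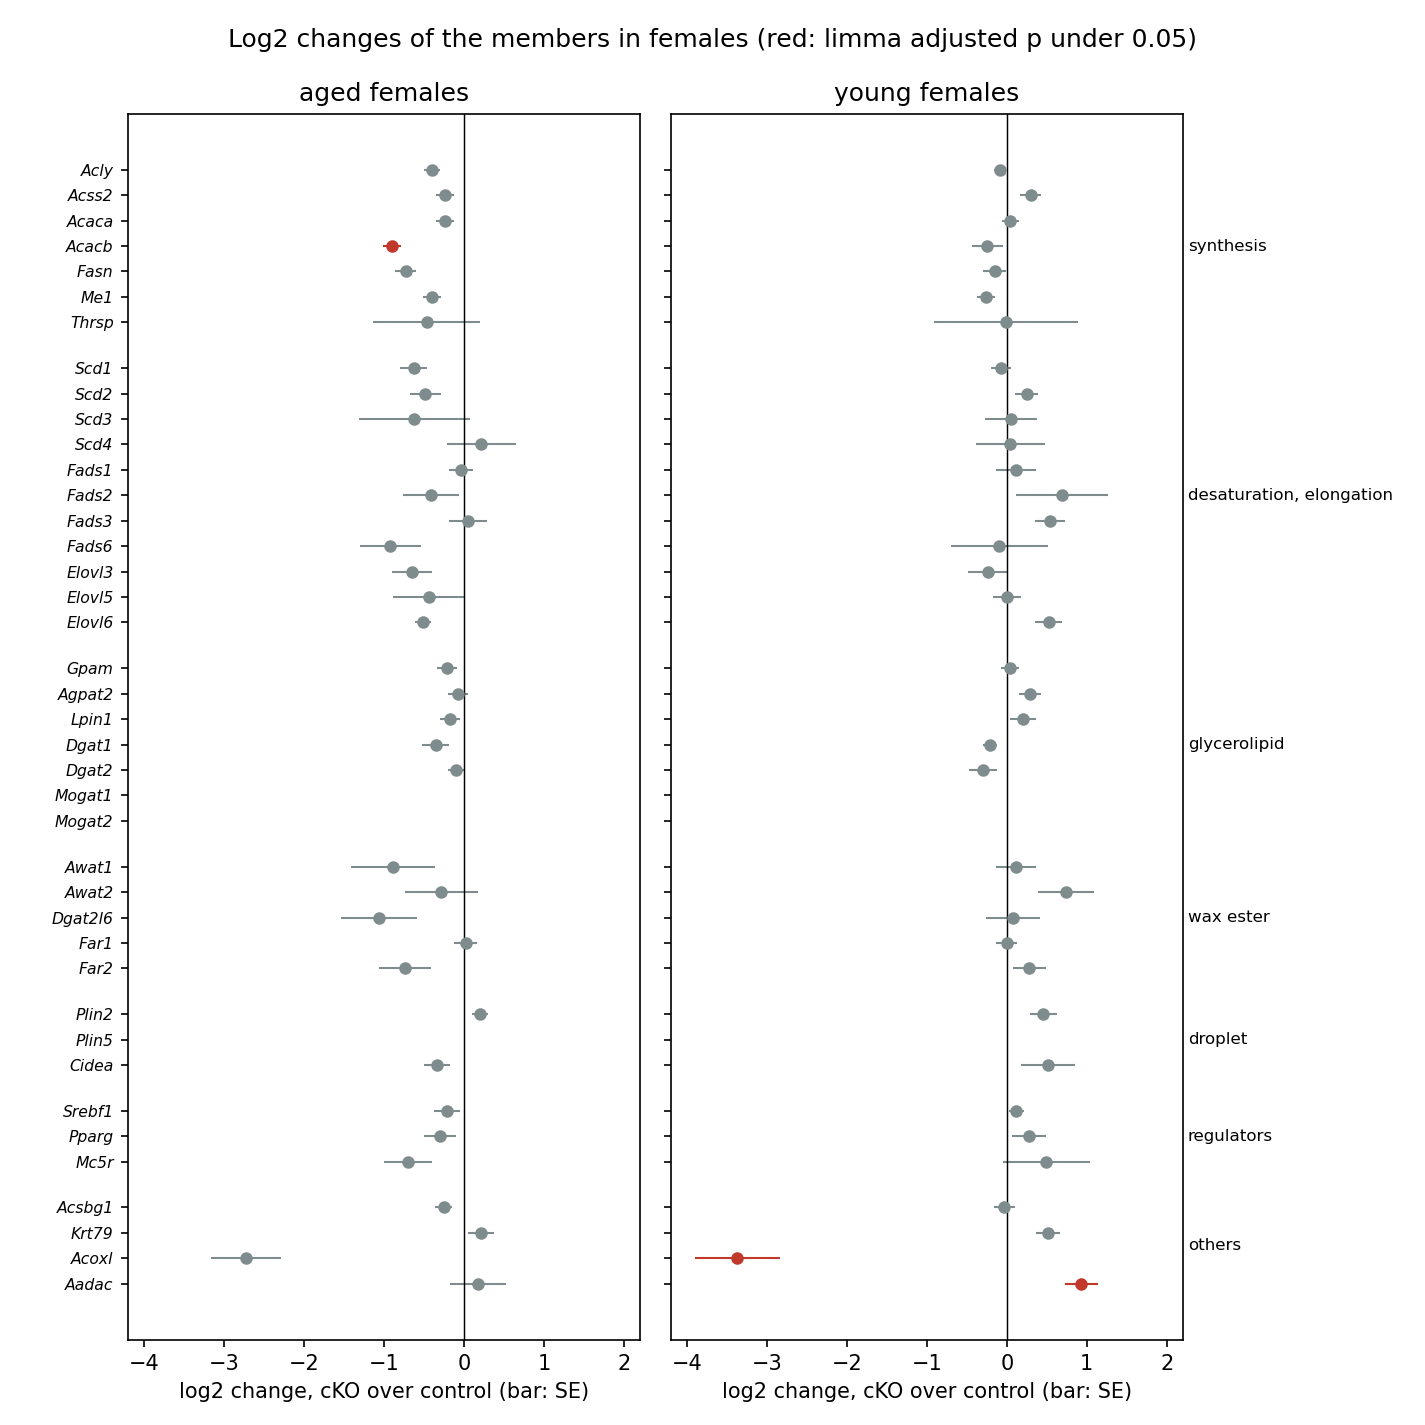
Log2 change of each member, cKO over control, with its standard error as a bar, in aged females (left) and young females (right); members run down the page by role, and red points passed limma. In aged females the points lie mostly left of 0, with all 7 fatty acid synthesis genes below it; in young females Acoxl stands far to the left at -3.37 and Aadac to the right at 0.93.

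Acoxl carried the largest change of any tested member in both female tables. It encodes an acyl-CoA oxidase-like protein related to the enzymes of peroxisomal fatty acid oxidation, and spans bases 127838876 to 128123873 of chromosome 2 (GRCm38). Young cKO females had 2.74, 5.36, 24.5, 17.9 and 16.1, against 129.9, 102, 90.6 and 156 in young control females. The highest cKO library was below the lowest control. The means were 13.3 ± 9.06 (SD, n = 5) in cKO and 119.7 ± 29.4 (SD, n = 4) in controls, a log2 change of -3.37 (SE 0.53, limma adjusted p = 0.00760). The exact two-sided permutation p over libraries was 0.00794, the smallest that the 126 splits allow. Among genes whose groups did not overlap, 4.89% of all tested genes were lower in young cKO females. The titles number the young libraries in 3 series, and within these series the log2 change was -4.57, -2.06 and -3.20. It was -3.48 with the series as a block (adjusted p = 0.000623). In aged females the cKO libraries had 38.6 and 20.5, against 264 and 139.8 in the controls, again without overlap. This change of -2.73 (SE 0.43) did not pass (limma adjusted p = 0.0610). With 2 against 2 libraries the smallest exact permutation p is 0.333.

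Male libraries did not separate for Acoxl. Young cKO males had 106, 205 and 110.5, against 182, 218 and 92 in young control males, and the groups overlapped (log2 change -0.20, SE 0.38, limma adjusted p = 0.9999). Aged males labelled cKO had 74.2, 156 and 127.2, against 226, 99.9 and 146 in those labelled control, again with overlap (log2 change -0.38, limma adjusted p = 0.9995). The change in young females minus that in young males was -3.17 (SE 0.77, unadjusted p = 0.000934, limma adjusted p = 0.408). That difference did not pass over the 13535 genes tested in both tables, of which 0 passed and 446 (3.3%) had an unadjusted p under 0.05.

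Aadac rose in young cKO females. It encodes arylacetamide deacetylase, an enzyme of the endoplasmic reticulum that hydrolyses esters and has been linked to triglyceride turnover in liver, and it spans bases 60025717 to 60040160 of chromosome 3. The young cKO libraries had 948, 577, 911, 1308 and 997, against 442, 389.5, 542 and 567 in young controls. The lowest cKO library, cKO 2, was just above the highest control, and not above it with libraries scaled to the same sum. Means were 948 ± 260.4 (SD, n = 5) in cKO and 485 ± 83.7 (SD, n = 4) in controls, a log2 change of 0.93 (SE 0.21, limma adjusted p = 0.0336, exact permutation p = 0.0159). Of all tested genes, 3.74% were higher in young cKO females without overlap. The call was lost when libraries were scaled to the same sum (adjusted p = 0.0555) and without any 1 library other than cKO 2 (limma adjusted p 0.05003 to 0.106). Aged cKO females had 568 and 1240.1, against 812 and 683 in aged controls, so that 1 cKO library was below and 1 above both controls (log2 change 0.17, limma adjusted p = 0.886). Young cKO males had 356, 351 and 328, against 270.5, 486 and 359 in young control males (log2 change -0.07). Aged males labelled cKO had 480.2, 282 and 802, against 368, 348 and 741 in those labelled control (log2 change 0.07). Both male comparisons overlapped, and the change in young females minus that in young males was 1.002 (SE 0.33, unadjusted p = 0.00824, limma adjusted p = 0.927). Between the male tables, aged minus young, 0 of 13639 genes differed after adjustment, and 121 (0.887%) had an unadjusted p under 0.05.

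**Figure D2:**
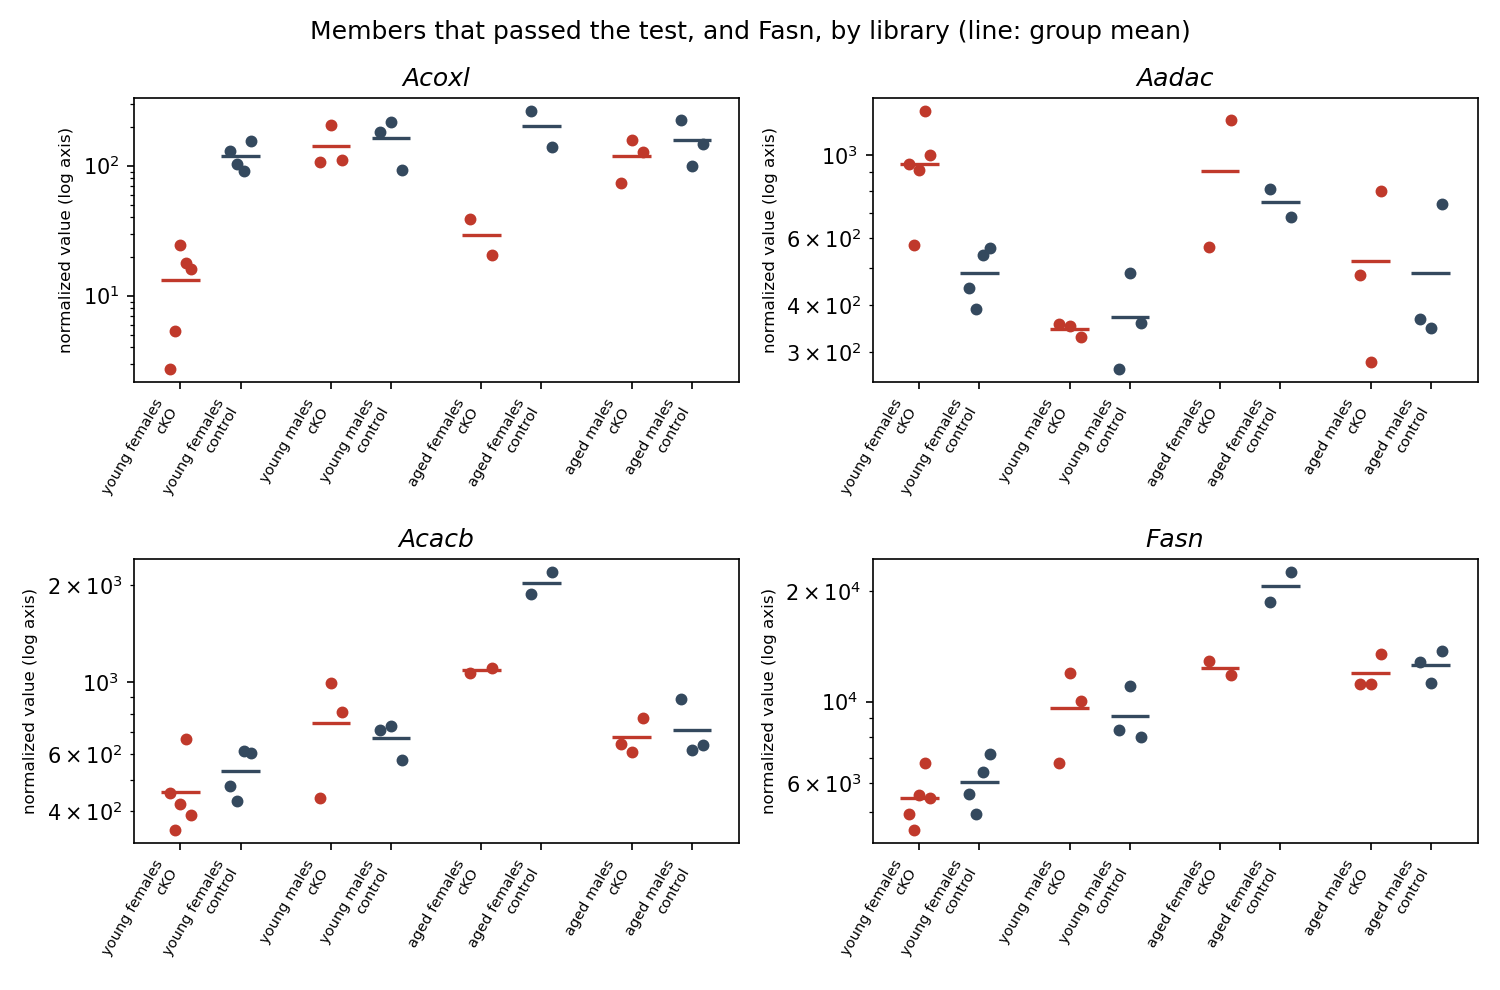
Normalized value in each library (log axis) of the 3 members that passed limma and of Fasn, with the cKO group (red) left of its control group (dark blue) in each of the 4 tables and a line at the group mean. Acoxl lies between 2.74 and 24.5 in young cKO females and between 90.6 and 156 in their controls; Acacb and Fasn separate in aged females, where the controls are higher than in the other tables, which were scaled separately.

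In aged females all 7 genes that supply or run fatty acid synthesis had a log2 change below 0, and 6 were lower in both cKO libraries than in both controls, beside 22% of all tested genes. Among the 7, Acacb alone passed limma. Acacb makes malonyl-CoA at the mitochondrial surface, where it restrains fatty acid oxidation, and spans bases 114146535 to 114250761 of chromosome 5. The aged cKO libraries had 1070.4 and 1107, against 1882 and 2196 in aged control females. Both cKO libraries were near the same level and well below both controls. The means were 1089 ± 26.2 (SD, n = 2) in cKO and 2039 ± 222 (SD, n = 2) in controls, a log2 change of -0.90 (SE 0.11, limma adjusted p = 0.0424). The call was lost without any 1 of the 4 libraries (limma adjusted p 0.0830 to 0.159) and without the filter on low values (0.134). Fasn had 12935 and 11799 in aged cKO females, against 18702 and 22553 in aged controls, a log2 change of -0.73 (SE 0.13) that did not pass (limma adjusted p = 0.0783). Acly had 11011 and 10956 in aged cKO females, against 14119.6 and 14859.7 in aged controls (-0.40, limma adjusted p = 0.142). Me1 had 10001 and 10812, against 14510.2 and 13029.5 in aged controls (-0.40, limma adjusted p = 0.176). Acly and Me1 thus separated the groups without passing the test, as did Acaca (-0.24) and Acss2 (-0.24), which makes acetyl-CoA from acetate. Thrsp, a small protein that promotes lipogenesis in liver, overlapped (-0.47). Acaca and Me1 share 30.4% and 22.9% of their 50-base stretches with other annotated genes, so part of their reads could have been split or lost in counting.

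In young females the same enzymes lay on both sides of 0, and 0 of 7 passed. Young cKO females had 4932, 4464, 5579, 6802 and 5444 of Fasn, against 5614, 4930.1, 6444 and 7186 in young controls, with overlap (log2 change -0.15, SE 0.14, limma adjusted p = 0.643). Acacb had 455, 349, 419.9, 669 and 389.7 in young cKO females, against 478, 429, 615 and 605 in young controls, also with overlap (-0.24, limma adjusted p = 0.577). Acss2 was at 0.30 and Me1 at -0.26, on opposite sides of 0, each with an unadjusted p just under 0.05 (0.0491 for Acss2 and 0.0452 for Me1) and neither past the adjustment. Acly (-0.09) and Acaca (0.04) lay close to 0. The summed level of the 7 genes was 19907 to 22486 in young cKO females and 22558 to 25106 in young controls. With libraries scaled to a sum of 1000000 it was 929 to 1164 in young cKO females and 999 to 1217 in young controls, so that the ranges overlapped on that scale and not on the deposited one.

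Males showed no separation of Fasn or Acacb. Young cKO males had 6815, 11977 and 10049 of Fasn, against 8355, 11020.0 and 8003 in young control males (0.05). Their Acacb was 439.5, 998 and 811, against 713, 733 and 577 in young control males (0.08). In both genes the library cKO 1 was the lowest of the 6 and cKO 2 the highest. Aged males labelled cKO had 11182, 11161 and 13528 of Fasn, against 12837, 11228 and 13731 in those labelled control (-0.08). Their Acacb was 645, 608 and 778, against 889, 616 and 639 in those labelled control (-0.07). Acss2 in aged males was the exception to overlap, with 825, 690.4 and 752 in the libraries labelled cKO, against 678, 555 and 533 in those labelled control (0.36, limma adjusted p = 0.9995).

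**Figure D3:**
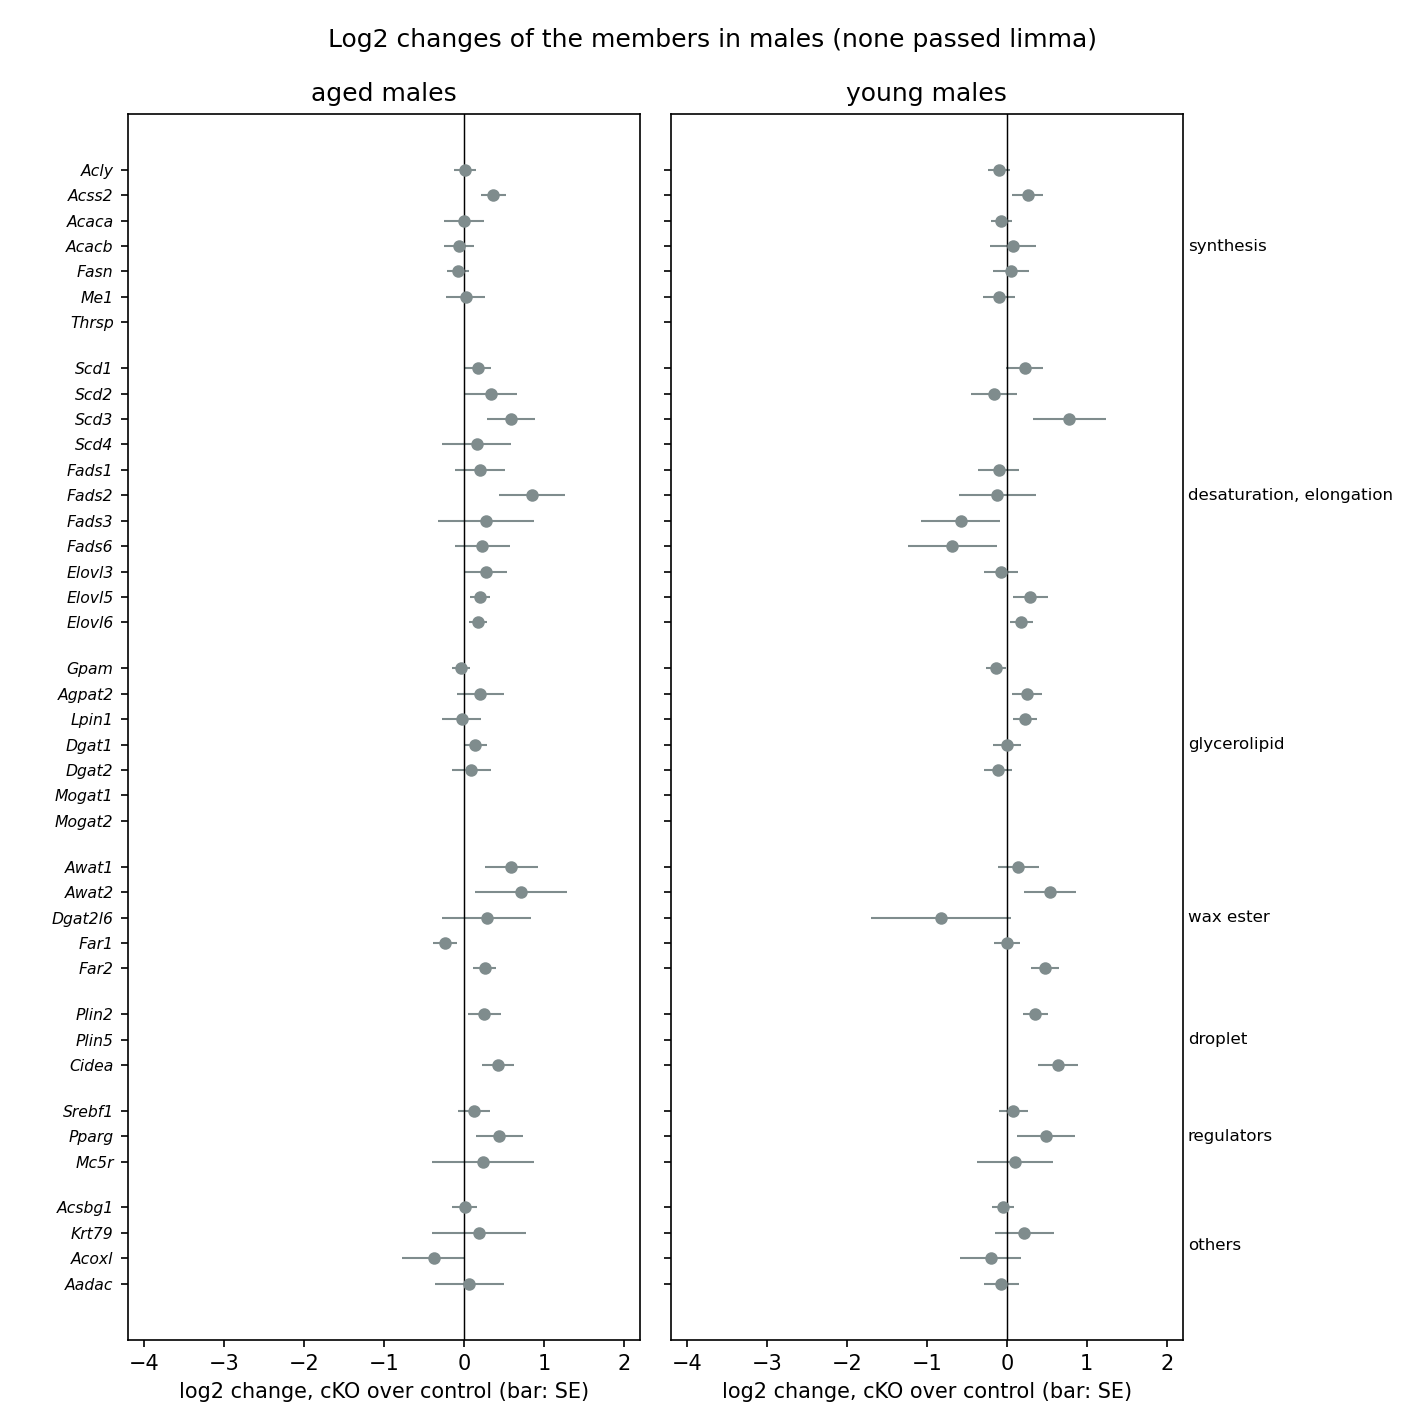
Log2 change of each member, cKO over control by label, with its standard error as a bar, in aged males (left) and young males (right), on the axis used for females. No member passed limma; Acoxl is at -0.38 in aged and -0.20 in young males, and all 11 desaturases and elongases are above 0 in aged males.

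Among the 11 desaturases and elongases, 0 passed limma in any of the 4 tables. In aged females 9 of 11 were below 0, beside 49.2% of all tested genes, and 6 were lower without overlap, beside 22%. Scd1, which makes oleate and is a defining enzyme of mature sebocytes, had 34332 and 43898 in aged cKO females, against 57059 and 63469.7 in aged controls. Both cKO libraries were lower (-0.63, SE 0.17, limma adjusted p = 0.168). Elovl6, which extends palmitate to stearate, had 10379 and 9509.9 in aged cKO females, against 14342 and 14042 in aged controls (-0.51, limma adjusted p = 0.0931). Fads6, a desaturase whose substrate is not established, had 25.2 and 25.2, against 37.2 and 63.6 in aged controls (-0.92, limma adjusted p = 0.353). Scd3, a desaturase of sebocytes, varied more within groups than between them, with 1187 and 2642 in aged cKO females, against 1301 and 5722 in aged controls (-0.62). Fads2, which desaturates linoleate, had 34.4 and 31, against 36.2 and 53.1 in aged controls (-0.41). Control 6 of the aged females was high for several members of this group, and without it the member median in aged females was -0.16. The 4 Scd genes share between 3.97% and 6.54% of their 50-base stretches with other annotated genes, chiefly with each other.

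Elovl6 lay on opposite sides of 0 in the females of the 2 ages. Young cKO females had 7065, 6837, 4287, 6860.0 and 6456, against 3741, 5441, 4520.1 and 3769 in young controls. Of the young cKO libraries, 4 were above every control and cKO 3 was among the controls (0.52, SE 0.17, limma adjusted p = 0.128, or 0.0358 with the block). The change in aged females minus that in young females was -1.04 (SE 0.27, unadjusted p = 0.00234, limma adjusted p = 0.9999). That was the smallest p of any member, and it did not pass over 13792 genes, of which 2 (0.0145%) passed and 208 (1.51%) had an unadjusted p under 0.05. With a z test on the separate fits 15 genes passed, 1 of them a member. The same difference for Fasn was -0.58 (SE 0.24, unadjusted p = 0.0320, limma adjusted p = 0.9999), and for Scd1 -0.56 (SE 0.22, unadjusted p = 0.0254, limma adjusted p = 0.9999).

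Young cKO females had 16822, 15029.7, 15622, 18620.1 and 13370.1 of Scd1, against 18329, 15553, 14665 and 18286 in young controls (-0.07, limma adjusted p = 0.807). Their Scd3 was 282, 231, 542, 668 and 312, against 443, 327, 243 and 483 in young controls (0.05). The groups overlapped for both genes. Fads2 in young cKO females was 4.12, 16.2, 16.5, 31.7 and 38, against 8.89, 11.8, 5.96 and 17.3 in young controls (0.69, SE 0.58). Fads6 was 5.49, 8.11, 12.2, 21.8 and 10.1, against 3.97, 5.28, 21.8 and 30.04 in young controls (-0.09). These low values spread widely in both groups. Fads3, a relative of Fads2, was 0.55 (limma adjusted p = 0.157, or 0.0403 with the block), and the remaining desaturases and elongases lay between -0.24 (Elovl3) and 0.25 (Scd2) in young females.

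For Scd1, young cKO males had 16257, 20359 and 16179, against 18862, 16742 and 10684 in young control males (0.22). For Scd3 they had 382, 1665 and 642, against 383, 471 and 446 in young control males (0.78, SE 0.46). The library cKO 2 was highest for both genes. Fads6 in young cKO males was 10.5, 25.2 and 43.6, against 23.1, 50.9 and 43.2 in young control males (-0.68). Fads2 was 9.19, 13.2 and 25.8, against 19.2, 14.8 and 14.5 in young control males (-0.12). Both overlapped. In aged males all 11 desaturases and elongases were above 0, from 0.16 (Scd4) to 0.85 (Fads2), and every one of them overlapped. Fads2 had 35.3, 48.2 and 72.2 in the libraries labelled cKO, against 29.5, 18.6 and 36.1 in those labelled control (SE 0.41, limma adjusted p = 0.9995). Scd3 had 941, 1067 and 494, against 582, 565 and 446 in those labelled control (0.59). Scd1 had 20805, 20877 and 22267, against 23794, 18142 and 15828 in those labelled control (0.17). Fads6 had 35.1, 32.4 and 48.6, against 33.3, 26.1 and 39.2 in those labelled control (0.23). Without cKO 5, control 5 and control 6, whose Kdm6a or Gh went against the label, Scd3 was 0.23 and Scd1 -0.14. Of the members, 13 of 36 were then below 0. That fit had control 4 as its only control library.

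The genes of glycerolipid synthesis had small log2 changes, and 0 passed in any table. In aged females all 5 tested members were below 0 and lower without overlap, beside 22% of all tested genes, with log2 changes from -0.36 (Dgat1) to -0.07 (Agpat2). With libraries scaled to the same sum 2 of the 5 were still lower without overlap, and Dgat2, Gpam and Agpat2 overlapped. Dgat1 completes triglycerides from diacylglycerol. Young cKO females had 425, 431, 435, 423 and 412 of Dgat1, against 548, 471, 485 and 463 in young controls, lower without overlap and by a small amount (-0.21, SE 0.09, limma adjusted p = 0.282, exact permutation p = 0.00794). In young females 2 of 37 members were lower without overlap, Acoxl and Dgat1, beside 4.89% of all tested genes. Higher without overlap were 2, Aadac and Krt79, beside 3.74%. Dgat2, the counterpart of Dgat1, had 10681, 9927, 9022, 6925 and 6685 in young cKO females, against 12386, 11824, 9649.5 and 8407 in young controls (-0.30, limma adjusted p = 0.430, or 0.0483 with the block). Gpam, which starts glycerolipid synthesis, was between -0.21 in aged females and 0.04 in young females. Lpin1, a phosphatidate phosphatase, was higher without overlap in young cKO males, at 308, 332 and 310.1 against 259.7, 291 and 259.6 in young control males (0.23, limma adjusted p = 0.9999). Among young males 3.46% of all tested genes were higher in cKO without overlap, and 3 members were (Lpin1, Far2 and Awat2), or 5 with libraries scaled to the same sum (Cidea and Plin2 as well), while 2.42% were lower, with 0 members among them.

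The 5 genes of wax ester synthesis are those most tied to sebum: Far1 and Far2 reduce fatty acids to alcohols, and Awat1, Awat2 and Dgat2l6 join alcohols to fatty acids. These 3 acyltransferases lie on chromosome X, the chromosome that Xist silences. In aged females 4 of 5 were below 0 and 0 passed. The 1 that was lower without overlap makes a share of 20%, about that of all tested genes (22%). Dgat2l6 had 37.6 and 60.2 in aged cKO females, against 64.3 and 157 in aged controls (-1.06, SE 0.48, limma adjusted p = 0.394). Awat1 had 225 and 345, against 287 and 927 in aged controls (-0.89, SE 0.53). Awat2 had 446 and 532, against 349 and 1010.2 in aged controls (-0.28, SE 0.46). In each of the 3, control 6 was the highest of the 4 libraries by a wide margin. Far2 was -0.74 (limma adjusted p = 0.379) and Far1 0.02.

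In young cKO females Awat2 was 279.5, 293, 94.6, 288 and 221, against 183, 164, 100 and 95.4 in young controls. All but cKO 3 were above every control (0.74, SE 0.35, limma adjusted p = 0.316). Awat1 was 182, 176, 134, 157 and 115.3, against 229.9, 155, 99.5 and 105 in young controls (0.11). Dgat2l6 was 25.9, 15.9, 13.2, 26.6 and 15.3, against 19.6, 12.9, 14 and 27.1 in young controls (0.07). These last genes did not separate. Young cKO males had 84.8, 165 and 82.7 of Awat2, against 81.5, 56.7 and 80.5 in young control males, higher without overlap though only cKO 2 stood clear (0.54, exact permutation p = 0.100, the smallest that 3 against 3 allows). Far2 was 785, 1212 and 865 in young cKO males, against 697, 682 and 638 in young control males, also higher (0.48, unadjusted p = 0.0279, limma adjusted p = 0.9999). Exons overlap those of neighbours for 12.6% of the bases of Far2, on the opposite strand, and the strand used in counting is not given in the sources used here. Dgat2l6 was 2.18, 27.9 and 25.1 in young cKO males, against 11.4, 30.1 and 33.3 in young control males (-0.82, SE 0.88), a change that rested on cKO 1, without which it was 0.22. Awat1 was 122, 189.8 and 135, against 114.3, 119.5 and 169 in young control males (0.14).

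Aged males labelled cKO had 329.9, 217 and 136.9 of Awat1, against 132, 136 and 159 in those labelled control (0.59, SE 0.33). They had 381, 76 and 117 of Awat2, against 97.7, 117 and 66.7 in those labelled control (0.71, SE 0.58). For both, the library labelled cKO 4 was the highest of the 6. Dgat2l6 was 58, 33.5 and 15.8, against 37.2, 16.3 and 27.7 in those labelled control (0.28). Far2 was 972, 1121 and 914, against 914, 797 and 805 in those labelled control (0.26), higher by the narrowest of margins. Higher without overlap were 2.36% of all tested genes in aged males, and 3 members (Far2, Acss2 and Cidea), of which Far2 and Acss2 overlapped with libraries scaled to the same sum. Lower without overlap were 2.21% of all tested genes and 0 members.

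Plin2, which coats lipid droplets, and Cidea, which helps droplets fuse, were the tested droplet genes. In young cKO females Plin2 was 1946, 2091, 1484, 2205 and 1754, against 1816, 1390.1, 1013 and 1365 in young controls (0.46, limma adjusted p = 0.183, or 0.0328 with the block). Cidea was 709.7, 633, 257, 512 and 436, against 486, 476, 198 and 277 in young controls (0.52, limma adjusted p = 0.489, or 0.0340 with the block). Both overlapped between groups. In aged females Plin2 was the only member higher in cKO without overlap (3334 and 3660.3, against 3068 and 3023 in aged controls, log2 change 0.20, limma adjusted p = 0.431), beside 22.2% of all tested genes. Cidea there was -0.34. In young cKO males Cidea was 307, 459 and 306, against 307, 193 and 192 in young control males (0.64, unadjusted p = 0.0356, limma adjusted p = 0.9999). In aged males Cidea was 471, 368 and 364 in the libraries labelled cKO, against 331, 319 and 249 in those labelled control (0.42). Both genes were above 0 in young females and in both male tables.

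Of the 3 regulators, Srebf1 encodes the sterol-responsive factor that switches on fatty acid synthesis genes, Pparg the nuclear receptor of sebocyte and adipocyte differentiation, and Mc5r the melanocortin receptor of the sebaceous gland. All 3 were below 0 in aged females and above 0 in the other tables, and 0 passed. Srebf1 in aged cKO females was 8315 and 6376, against 7614 and 9384 in aged controls (-0.22). Pparg was 167 and 210.1, against 219.8 and 244 in aged controls (-0.30, limma adjusted p = 0.567). Mc5r was 59 and 83.5, against 136.9 and 95.9 in aged controls (-0.70, limma adjusted p = 0.371). Pparg and Mc5r were thus lower without overlap, beside 22% of all tested genes, and Srebf1 was not. In young cKO females Srebf1 was 4985, 4569, 5354, 5300.2 and 4432, against 4854, 4317, 4885 and 4123 in young controls (0.12). Pparg was 87.7, 92.2, 79.4, 156 and 94.9, against 71, 96.3, 78.2 and 81.6 in young controls (0.28). Mc5r was 13.7, 8.01, 14.9, 43.8 and 17, against 5.89, 6.54, 16.9 and 25.2 in young controls (0.49). The library cKO 4 was the highest for both Pparg and Mc5r, and without it 19 of 37 members were below 0 in young females. Young cKO males had 6112, 6493 and 6425 of Srebf1, against 7244, 6508 and 4546 in young control males (0.08). Their Pparg was 66, 80.04 and 62.8, against 61, 67 and 28.6 in young control males (0.49), and their Mc5r 13.4, 43.2 and 22.4, against 18.8, 26.6 and 21 in young control males (0.11). Every male comparison of these 3 genes overlapped. Aged males labelled cKO had 9988, 5973 and 7887 of Srebf1, against 8195, 6623 and 6698 in those labelled control (0.12). Their Pparg was 67.7, 80.2 and 59, against 49.8, 62.4 and 40.6 in those labelled control (0.44). Their Mc5r was 8.39, 18 and 38.2, against 16.2, 9.24 and 23.4 in those labelled control (0.23).

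Krt79, a keratin of the hair follicle opening and sebaceous duct, was 29923, 26836, 40966, 32063 and 32359 in young cKO females, against 24086, 20916, 26689 and 18961 in young controls. Every young cKO library was above every control, cKO 2 by the least, though not with libraries scaled to the same sum (0.51, SE 0.15, limma adjusted p = 0.0958, or 0.0167 with the block). It overlapped in the other tables (0.21 in aged females, 0.22 in young males and 0.19 in aged males). Acsbg1, an acyl-CoA synthetase, was lower without overlap in aged cKO females (-0.26, limma adjusted p = 0.371) and within 0.05 of 0 in the other tables. With the series of library numbers as a block in the fit, 2011 of 13898 genes (14.5%) passed in young females and 8 members did, Aadac, Acoxl, Cidea, Dgat2, Elovl6, Fads3, Krt79 and Plin2.

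Other genes of the pathway were read from lists of 101 genes that are not members. In young females 3 of 94 tested genes passed, beside 3.94% of all genes. Cpt1c, a carnitine palmitoyltransferase relative, was 272 to 348 in young cKO females, against 109 to 142.5 in young controls (1.29, limma adjusted p = 6.84e-04), and Acsl6, an acyl-CoA synthetase, was 12.1 to 72.7, against 1.998 to 16.8 in young controls (2.86, adjusted p = 0.0330). Acsl3, another acyl-CoA synthetase, was lower at 459.6 to 594.5, against 657 to 919 in young controls (-0.56, limma adjusted p = 0.0300). In aged females 1 of 95 passed, beside 0.669% of all genes. This was Soat1, which makes cholesteryl esters, at 908 to 960.1 in aged cKO females, against 1757 to 2015 in aged controls (-1.01, limma adjusted p = 0.0354). In aged females Cpt1c was also at 0.93, Acsl6 at 2.05 and Acsl3 at -0.56, all without passing (limma adjusted p = 0.0711 for Cpt1c, 0.0593 for Acsl6 and 0.103 for Acsl3). Cpt1c was at 1.24 in young males (SE 0.23, limma adjusted p = 0.808) and at 0.23 in aged males by label. Acsl6 was at 0.90 in aged males by label, and Acsl3 at 0.09 in young males and -0.31 in aged males by label. In males 0 of 94 passed at either age, beside 0.0146% of all genes in young males and 0.014% in aged males. The 14 regulators of the sterol and LXR pathways had a median log2 change of 0.02 in young females and 0.02 in aged females, and 0 passed in any table.

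Summed adipocyte markers and summed sebocyte markers were also lower in both aged cKO female libraries than in both aged controls, and summed muscle markers overlapped. Summed hair follicle markers were lower too, at 170707 and 173652 in aged cKO females, against 190903 and 206841 in aged controls. Fibroblast markers summed to 1279.9 and 1393 in aged cKO females, against 1102 and 1185 in aged controls. Melanocyte markers summed to 1330.0 and 1695 in aged cKO females, against 982 and 1093 in aged controls. T cell markers summed to 1299 and 1378 in aged cKO females, against 1138 and 1179 in aged controls. These last 3 sums were thus higher in both aged cKO female libraries. Among single genes, 22.2% of all tested were also higher in both, and 22% were lower in both. The summed level of 14 adipocyte markers was 1448 and 2062 in aged cKO females, against 2931 and 4139 in aged controls. None of the 14 was at 0 in any aged female library. Of 13 tested, 12 were below 0, beside 49.2% of all tested genes, and 2 passed, both lower, beside 0.498%. Adipoq, the adipocyte hormone adiponectin, averaged 12.7 in aged cKO females, against 110.7 in aged controls (-3.03, limma adjusted p = 0.0273). The 4 sebocyte markers that are not members and are reported here, Soat1 among them, summed to 4814 and 6298 in aged cKO females, against 7551 and 9858 in aged controls. They did not move one way. Soat1 (-1.01) and Fa2h (-0.80) were lower without overlap, beside 22% of all tested genes. Krt7 (0.49) was higher without overlap, beside 22.2%. Skeletal muscle markers summed to 238 and 3333 in aged cKO females, against 1070.3 and 6241 in aged controls. Of these, 13 of 13 tested were below 0, beside 49.2% of all tested genes. Among the muscle markers Myh7, a slow muscle myosin, was listed at 0 in cKO 6 and control 5, and the others and the sebocyte markers were above 0 in all 4 libraries. The part of these cells in the aged female values was not tested. Muscle markers were below 0 in the other tables as well. They were 9 of 9 tested in young females, beside 51.0% of all tested genes, and 12 of 12 in young males, beside 50.9%. In aged males by label they were 11 of 11, beside 50.1%. Their median log2 change was -1.43 in aged females, -0.89 in young females, -2.40 in young males and -1.71 in aged males. In young females the adipocyte markers summed to 663 to 1496 in cKO and 1031 to 1370.3 in controls, and the sebocyte markers that are not members to 2909 to 3829 in cKO and 2692 to 3619.9 in controls. Langerhans and myeloid cell markers summed to 20054 to 27377 in young cKO females, against 15125 to 18643 in young controls, without overlap on the deposited scale. Of these, 0 of 7 tested were below 0, beside 51.0% of all tested genes, and 1 passed, beside 3.94%. This sum overlapped in the other tables, and the other marker sums overlapped in young females. The part of these cells in the young female values was not tested.

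**Figure D4:**
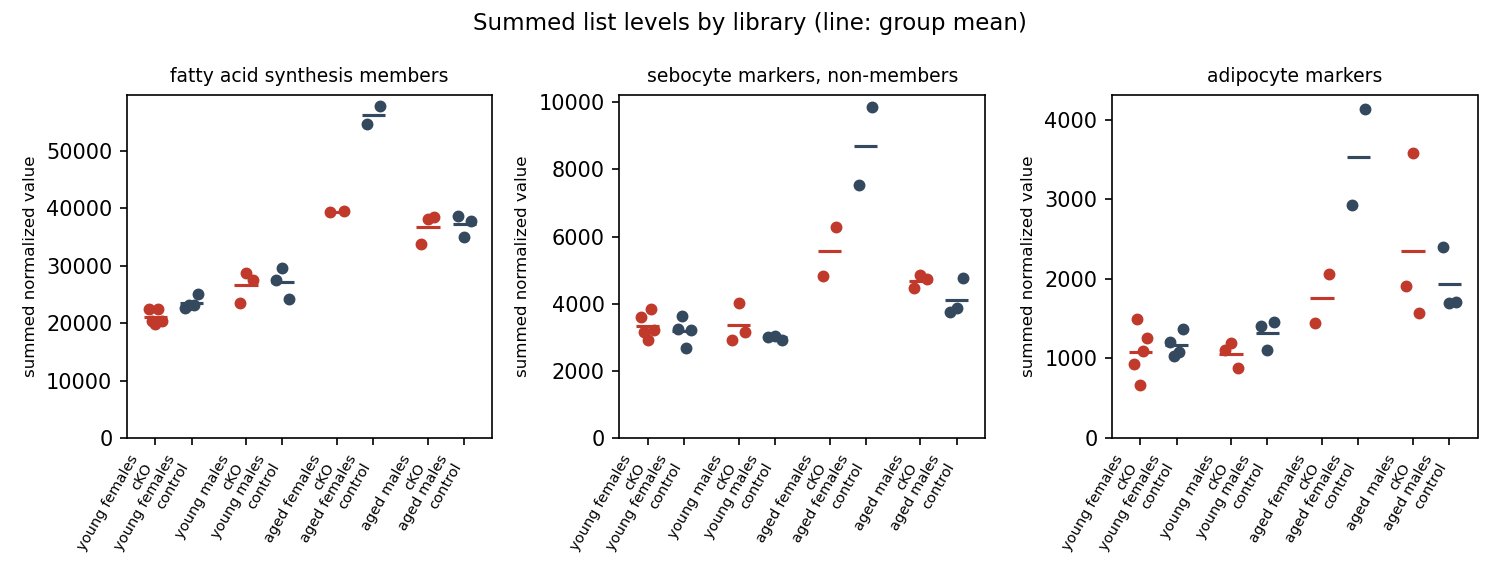
Summed normalized value of the 7 fatty acid synthesis members, the 4 sebocyte markers that are not members and the 14 adipocyte markers, in each library, with the cKO group (red) left of its control group (dark blue) and a line at the group mean. In aged females all 3 sums are lower in both cKO libraries than in both controls; in young females the synthesis sums separate narrowly on the deposited scale, and overlap once libraries are scaled to the same sum.

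Heterozygous young females were described only by the authors' deposited table, which lists 31 of the 40 members. The authors called 0 of the 29 members with an adjusted p, beside 25 of 9226 genes (0.271%). Of the 29, 7 were below 0 in the authors' deposited table, and the median log2 change was 0.38. The same count and median were not taken over all genes of that table. A shift of the members is therefore not set apart from one of all genes. The authors' deposited table gave Acoxl means of 110 in heterozygous females and 141 in controls (-0.36, the authors' p = 0.778). The authors' SE of that change was wide, at 1.28. Aadac had means of 952 in heterozygous females and 631 in controls there (0.59, SE 0.30, the authors' p = 0.0499). Among the 29, the largest log2 change was that of Mc5r, with means of 74.2 in heterozygous females and 24.2 in controls in the authors' deposited table (1.62, the authors' adjusted p = 0.127). Fads2 had means of 28.7 in heterozygous females and 13.4 in controls in the authors' deposited table (1.10, the authors' adjusted p = 0.9999). Cidea had 568 in heterozygous females and 273 in controls in the authors' deposited table (1.06, the authors' adjusted p = 0.435). The control means of that table matched those of young controls 3 and 4, so the heterozygous and cKO comparisons of young females share control libraries. For cKO against control, the authors' deposited tables called 4 of 29 members in young females (Aadac, Elovl6 and Krt79 higher, Acoxl lower), beside 7.18% of genes. They called 6 of 29 in aged females, all lower (Acacb, Acly, Acoxl, Elovl6, Fasn and Me1), beside 4.5%. They called 0 of 31 in young males, beside 0.126%, and 0 of 31 in aged males, beside 0.0081%.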

How the data were processed

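Poly(A) RNA-seq of mouse epidermis was used as deposited. The deposited values per library are a normalized signal, read counts scaled by the authors, and not whole reads. Per the file headers, the authors' comparison tables give mean signal values, log2 fold changes, a test score, p-values and adjusted p-values. STAR and DESeq2 are the tools, and GRCm38 and mm10 the builds, in the submitters' processing notes. The counting program and annotation are not given in the sources used here. The comparison tables as held here stop within the alphabet, and list 31 of the 40 members. Each table held 24972 genes, of which 26 with names turned into dates were left out.

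Groups came from the labelled genotypes, replicate numbers from accession order, and ages from the names of the tables. Tables were scaled separately, so each was tested alone with limma 3.58.1 (R 4.3.3) on log2(value + 1), the prior variance following the mean level. Genes were kept where the number of libraries at 10 or more reached the size of the smaller group, p-values were adjusted by Benjamini-Hochberg, and the threshold was 0.05. A count test was not used, because whole reads could not be recovered. The fit was tested on simulated data. Fold changes on this scale understate those of low genes. Differences between tables came from 1 joint limma fit. Single members also had an exact two-sided permutation test over libraries. Read depth is known only as the sum of normalized values, so no counting interval is given. The numbers in the library titles form series, and deviations from the group means correlated within each series (0.634, 0.425 and 0.403 in young females, 0.518, 0.420 and 0.399 in young males, 0.672, 0.303 and 0.245 in aged males), so a fit with the series as a block was made.

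The members and all lists were chosen with earlier results of these data known. Full values were given for members that passed in any comparison, the 3 with the largest log2 change in each, and Scd1, Fasn, Srebf1, Pparg and Mc5r. Other members named with values were chosen after those values were seen. Promoter sequences and motif shares came from RefSeq (GRCm38.p6) and gene spans from GENCODE. Alternatives were a pseudocount of 5, no filter, quantile normalization, scaling to the same sum, the block and leaving out each library. A sebocyte marker is not reported here and was left out of the marker sums.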

Additional observations from a re-analysis of the deposited data

Results flagged for a closer look

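Single libraries stood apart from the rest of their group for 4 of 74 sets of values tested with Dixon's criterion in young females, where groups hold 4 or 5 libraries. Chance flags about 1 in 20 groups. Elovl6 in cKO replicate 3 was 4287, below the other 4 young cKO females. Awat2 in the same library was 94.6, again below the other 4. Pparg in cKO replicate 4 was 156, above the other 4 young cKO females. Fads1 in control replicate 2 was 106, below the other 3 young controls.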

How the results depend on the processing

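Without the filter on low values, which adds genes to the adjustment, aged females had 1 gene called, 0 members and 0 other pathway genes, against 98, 1 and 1 with it. Scaling libraries to the same sum left 1 member called in young females (Acoxl) and gave 2 other pathway genes in aged females. A pseudocount of 5 also gave 2 other pathway genes there. Quantile normalization gave 65 genes in aged females. With the series of library numbers as a replicate block, young females had 2011 genes, 8 members and 14 other pathway genes called, and young males 7 genes. The aged female numbers form only 2 series (correlation of deviations 0.229), and the block there gave 431 genes, 6 members (Acacb, Acoxl, Elovl6, Far2, Fasn and Scd1) and 6 other pathway genes. The block changed the call of 0 members in males. Leaving out 1 library, which also lowers the number of samples, gave 274 to 435 genes, 1 to 2 members and 1 to 2 other pathway genes in young females, 1 to 3 genes in young males, 13 to 30 genes, 0 members and 0 other pathway genes in aged females, and 0 to 1 genes in aged males. In aged females the lone library left in a group is assumed to vary like the other group. Without the labelled cKO 5, control 5 and control 6 libraries, chosen after seeing the data, aged males had 58 genes and 0 members. For the differences between tables, a z test on separate fits gave 15 genes for aged minus young females and 45 for young females minus young males, with 1 member in each, and a pseudocount of 5 gave 1 gene for young females minus young males. Acoxl passed in young females under all 14 alternatives, Aadac under 5 of 14 and Acacb in aged females under 4 of 9; apart from the number of genes or samples, the cause was not tested. No called value changed sign. Read depth is unknown, so no counting error can be given for values near 0, and 2 libraries a group limit every aged female result.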

Other observations

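The levels of the members in controls differed between tables. Values scaled to a library sum of 1000000 were set side by side, with no test, because the tables were scaled separately and age, sex and table cannot be told apart. Of 37 members tested in both, 23 were higher in every aged female control than in every young female control and 0 were lower, beside 25.1% and 18% of all genes, and the median log2 ratio was 0.93 for the members and 0.06 for all genes. Against aged males labelled control, 23 of 36 members were higher in aged female controls and 1 was lower, beside 29.3% and 12.9% of all genes, with median log2 ratios of 0.62 and 0.10. Aged males labelled control, set against young male controls, had 0 of 35 members higher and 1 lower, beside 4.76% and 4.97% of all genes. On that scale Scd1 averaged 1948 in aged female controls, 786 in young female controls, 649 in aged males labelled control and 698 in young male controls. Awat2 averaged 21.9 in aged female controls (from 11.4 to 32.4) and 6.32 in young female controls (from 4.63 to 8.11). It averaged 3.16 in aged males labelled control and 3.31 in young male controls. Krt79, the keratin of the sebaceous duct, averaged 1149.6 in aged female controls and 1068 in young female controls.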
